A study of Bos taurus with 14 samples.

Results

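The genes described here are 9 genes of endothelium and of blood vessel growth: PECAM1, SOX18, TEK, CD34, KDR, FLT1, VEGFA, CDH5 and ENG. They were taken as every probe set on the bovine array whose only gene symbol was one of these names, which gave 15 probe sets of 24016 and 9 of 9155 named genes. PECAM1 and SOX18 were chosen on their opposite differences between long and short conceptuses in these same arrays, so the members' values by length are a description and carry no test.

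The arrays measured RNA of 14 whole bovine conceptuses, each made up of the embryonic disc and its trophoblast and hypoblast membranes, on Day 15 of gestation. All came from superovulated Holstein donors inseminated from 1 bull, were collected on Day 6.5 and graded by morphology, and were transferred to recipients in groups of 2 to 6 until flushing. The 3 Grade 3 conceptuses grew from embryos of poorer morphology and the 11 Grade 1 conceptuses from the best ones. In Grade 1 the labels mark 5 as long and 5 as short, and give no length for 1. The Grade 3 conceptuses carry no length either, and the labels list 6 males and 8 females in all. Short replicate 1 carries both lengths in its labels and was taken as short, which gives the 5 and 5 that the study's design text states. Which conceptuses shared a dam or a recipient was not given, so each p-value measures only the spread between these conceptuses.

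Blood vessels form when mesoderm cells become endothelial, and the ligand VEGFA, acting on its receptor KDR, drives their growth, while the receptor FLT1 binds VEGFA strongly and limits what reaches KDR. TEK, also called TIE2, is the receptor of the angiopoietins. SOX18 is a transcription factor of early endothelium and lymphatic vessels, CDH5 joins endothelial cells at their junctions, PECAM1 and CD34 lie on the endothelial surface, and ENG is a co-receptor for TGF-beta family ligands. In mice PECAM1 is also made by cells of the early embryo outside vessels, and platelets and leukocytes carry it. A conceptus of this stage is made mostly of trophoblast and hypoblast, with few cells of mesoderm.

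**Figure D1:**
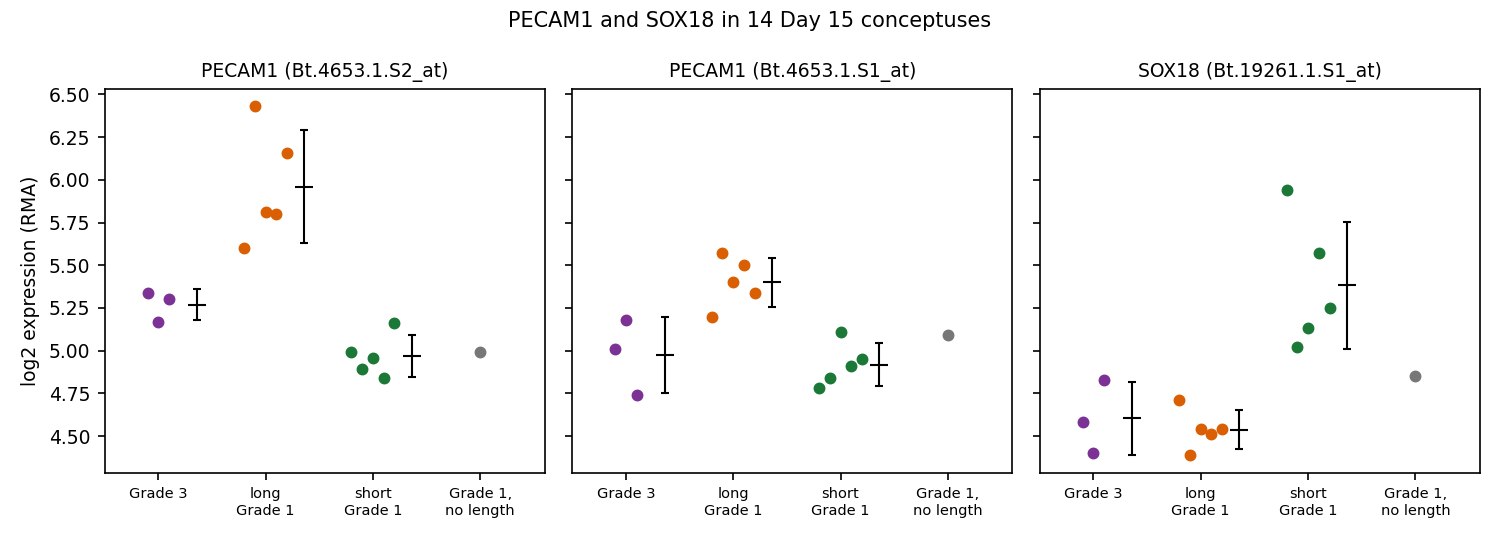
Log2 expression (RMA) of the 2 PECAM1 probe sets and the SOX18 probe set in each conceptus, by group. Points are conceptuses and bars are the mean ± SD. Long conceptuses lie above short ones in both PECAM1 panels and below them in the SOX18 panel, and the 3 Grade 3 conceptuses lie low in all 3 panels.

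PECAM1 was high in long conceptuses and low in short and Grade 3 ones. Its brighter probe set, Bt.4653.1.S2_at, had log2 values of 5.34, 5.17 and 5.30 in the Grade 3 conceptuses. It had 5.60, 6.43, 5.81, 5.80 and 6.16 in the long conceptuses, against 4.99, 4.89, 4.96, 4.84 and 5.16 in the short ones. Every long conceptus was above every short and every Grade 3 conceptus, and the lowest Grade 3 value was only just above the highest short one. Grade 3 averaged 5.27 ± 0.088 (SD, n = 3), the long group 5.96 ± 0.33 and the short group 4.97 ± 0.12 (SD, n = 5 each). The difference of long minus short was 0.99 ± 0.14 (SE, log2), or 1.99-fold. The conceptus with no length had 4.99, within the range of the short ones.

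The other PECAM1 probe set, Bt.4653.1.S1_at, showed the same order of long over short with a smaller difference. It had 5.01, 5.18 and 4.74 in Grade 3 conceptuses, 5.20, 5.57, 5.40, 5.50 and 5.34 in long ones and 4.78, 4.84, 5.11, 4.91 and 4.95 in short ones. Long and short did not overlap, and the Grade 3 values spread over the whole range of the short ones. Its long minus short difference was 0.49 ± 0.09 (SE, log2), or 1.40-fold, and the conceptus with no length had 5.09.

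SOX18 went the other way, high in short conceptuses and low in long and Grade 3 ones. Its only probe set, Bt.19261.1.S1_at, had 4.58, 4.40 and 4.83 in Grade 3 conceptuses. It had 4.71, 4.39, 4.54, 4.51 and 4.54 in long conceptuses, against 5.94, 5.02, 5.13, 5.57 and 5.25 in short ones. All 5 short conceptuses were above all long and Grade 3 ones, and the Grade 3 and long ranges overlapped. Grade 3 averaged 4.60 ± 0.22 (SD, n = 3), the long group 4.54 ± 0.12 and the short group 5.38 ± 0.37 (SD, n = 5 each). For SOX18, long minus short was -0.84 ± 0.15 (SE, log2), so SOX18 was 1.79-fold lower in long conceptuses. The conceptus with no length had 4.85, between the long and the short ranges.

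**Figure D2:**
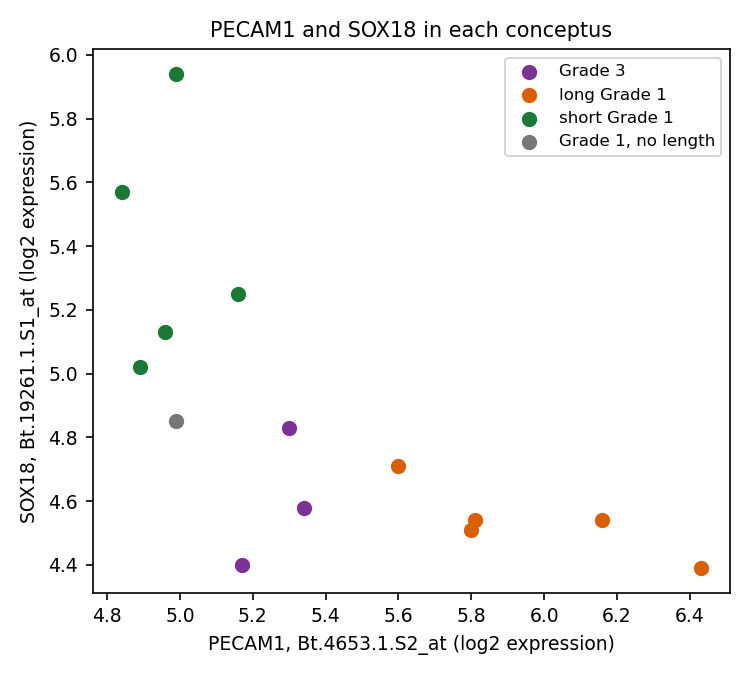
Log2 expression of SOX18 against PECAM1 (brighter probe set) in each of the 14 conceptuses, coloured by group. The 5 long conceptuses lie at the lower right, the 5 short ones at the upper left, and the 3 Grade 3 ones at the lower left with both genes low. The conceptus with no length has 4.99 for PECAM1 and 4.85 for SOX18. Both genes were chosen on their difference between long and short conceptuses.

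Set side by side in each conceptus, the 2 genes placed long and short conceptuses apart, which follows from how both genes were chosen. Short conceptuses had low PECAM1 with high SOX18, long ones the reverse, and Grade 3 ones had both low. The conceptus with no length had 4.99 and 4.85, so low values of both genes were not particular to Grade 3. In PECAM1 the Grade 3 and short conceptuses were hardly apart. The lowest Grade 3 value was 5.17 and the highest short one 5.16 on the brighter probe set, and the 2 groups overlapped on the other. The single highest SOX18 value, 5.94, came from short replicate 1, the conceptus whose labels conflict, and its PECAM1 values of 4.99 and 4.78 were low, as in the other short conceptuses. Counted as long, it would lower the differences to 0.83 and 0.35 for PECAM1 and bring SOX18 to -0.47. Without it the SOX18 difference was -0.70.

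The differences of these 2 genes are also given within each sex and within the title prefixes that could be compared. Since their long and short ranges did not overlap, the direction in each such split was fixed in advance. Only the sizes are described. Sample titles share 7 prefixes of unstated meaning, and only 2 of them hold both lengths. In the prefix with 2 long and 1 short conceptuses, long minus short was 1.12 and 0.55 for PECAM1 and -0.47 for SOX18. In the prefix with 1 long and 2 short ones the differences were 0.91, 0.40 and -0.81. Among females (4 long and 3 short) they were 1.06, 0.47 and -0.82, and among males (1 long and 2 short) 0.66, 0.39 and -0.77. No prefix held both grades, so prefix and grade cannot be told apart.

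VEGFA was the brightest of the 9 genes, at the 78.2 and 82.7 percentiles of mean signal among all probe sets, although levels of different probe sets also reflect how well each probe binds. The brighter probe set, Bt.4138.2.S1_at, had 9.24, 8.92 and 9.50 in Grade 3 conceptuses, 9.18, 9.22, 9.52, 9.39 and 9.56 in long ones and 9.14, 9.35, 8.59, 8.85 and 7.96 in short ones. The other, Bt.4138.1.S1_a_at, had 8.52, 8.64 and 8.99 in Grade 3, 8.59, 8.51, 8.87, 8.64 and 8.82 in long and 8.84, 8.72, 8.11, 8.49 and 7.73 in short conceptuses. The short conceptuses spread widest in both, and their upper values overlapped the other groups. Long minus short was 0.60 ± 0.22 and 0.31 ± 0.19 (SE, log2).

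The low VEGFA values of the short group were those of its 3 females. The 2 short males had 9.14 and 9.35 on the brighter probe set, against 8.59, 8.85 and 7.96 in the 3 short females. Long minus short was 0.96 among females and -0.06 among males on that probe set, and 0.60 and -0.19 on the other. Whether these differences by sex differ from each other was not tested, and only 1 long conceptus was male. In the title prefix with 2 long and 1 short conceptuses, long minus short was -0.15 on the brighter probe set and -0.17 on the other. In the prefix with 1 long and 2 short ones it was 0.80 and 0.58. No prefix held short conceptuses of both sexes, so sex and prefix cannot be told apart among them. The spread of VEGFA between conceptuses of 1 group was large: its SD within groups, 0.32 and 0.38, exceeded that of 93.4% and 95.6% of probe sets.

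Of the VEGF receptors, KDR and all but the brightest FLT1 probe set were dim and similar across the groups. KDR probe set Bt.29836.1.A1_at lay between 2.94 and 3.01 in Grade 3, 2.90 and 3.06 in long and 2.85 and 2.93 in short conceptuses. KDR probe set Bt.29836.1.S1_at lay between 3.42 and 3.46 in Grade 3, 2.99 and 3.51 in long and 3.22 and 3.83 in short conceptuses. The differences of long minus short were 0.06 ± 0.06 and -0.19 ± 0.13 (SE, log2), so the 2 KDR probe sets differed in sign. On the first, all 3 Grade 3 values stood above the 5 short ones, by a mean of 0.08 ± 0.06.

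FLT1 had 3 probe sets. On Bt.13148.1.A1_at its values were 3.70 to 3.88 in Grade 3, 3.45 to 3.72 in long and 3.47 to 3.93 in short conceptuses, and on Bt.13148.1.S1_at they were 3.51 to 4.08, 3.66 to 3.94 and 3.57 to 4.05. The groups overlapped on both, with long minus short at -0.04 and 0.04. The brightest FLT1 probe set, Bt.26391.1.A1_at, had 4.85, 4.92 and 7.33 in Grade 3, 5.11, 5.24, 5.29, 5.42 and 5.31 in long and 4.53, 5.22, 4.95, 4.58 and 5.53 in short conceptuses. The value of 7.33, in Grade 3 replicate 3, stood above all 13 others, while the other 2 probe sets gave 3.88 and 4.08 in that conceptus, the second of them the highest of its probe set as well. Long minus short on this probe set was 0.31 ± 0.17 (SE, log2). Its SD within groups, 0.69, exceeded that of 99.2% of probe sets.

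TEK was near the bottom of the array's range and was lowest in the Grade 3 conceptuses and in the Grade 1 conceptus with no length. Its probe set, Bt.4390.1.S1_at, had 2.75, 2.90 and 2.81 in Grade 3, 2.95, 3.06, 3.14, 3.03 and 3.04 in long and 3.15, 3.07, 2.94, 2.93 and 3.01 in short conceptuses, and 2.69 in the one with no length. All Grade 3 values were below all long and all short ones, and long and short overlapped with a difference of 0.02 ± 0.06 (SE, log2).

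The junction and surface genes were dim and overlapped between all groups. CDH5 probe set Bt.15715.1.S1_at had 4.06 to 4.30 in Grade 3, 4.07 to 4.33 in long and 3.90 to 4.14 in short conceptuses, and Bt.23246.1.S1_at had 3.16 to 3.63, 3.13 to 3.49 and 3.20 to 3.53. CD34 had 3.94 to 4.32 in Grade 3, 3.79 to 4.10 in long and 3.73 to 4.10 in short conceptuses. ENG had 4.61 to 4.85 in Grade 3, 4.44 to 4.82 in long and 4.54 to 4.80 in short conceptuses. Their long minus short differences were 0.12 and -0.02 for CDH5, 0.06 for CD34 and -0.04 for ENG.

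**Figure D3:**
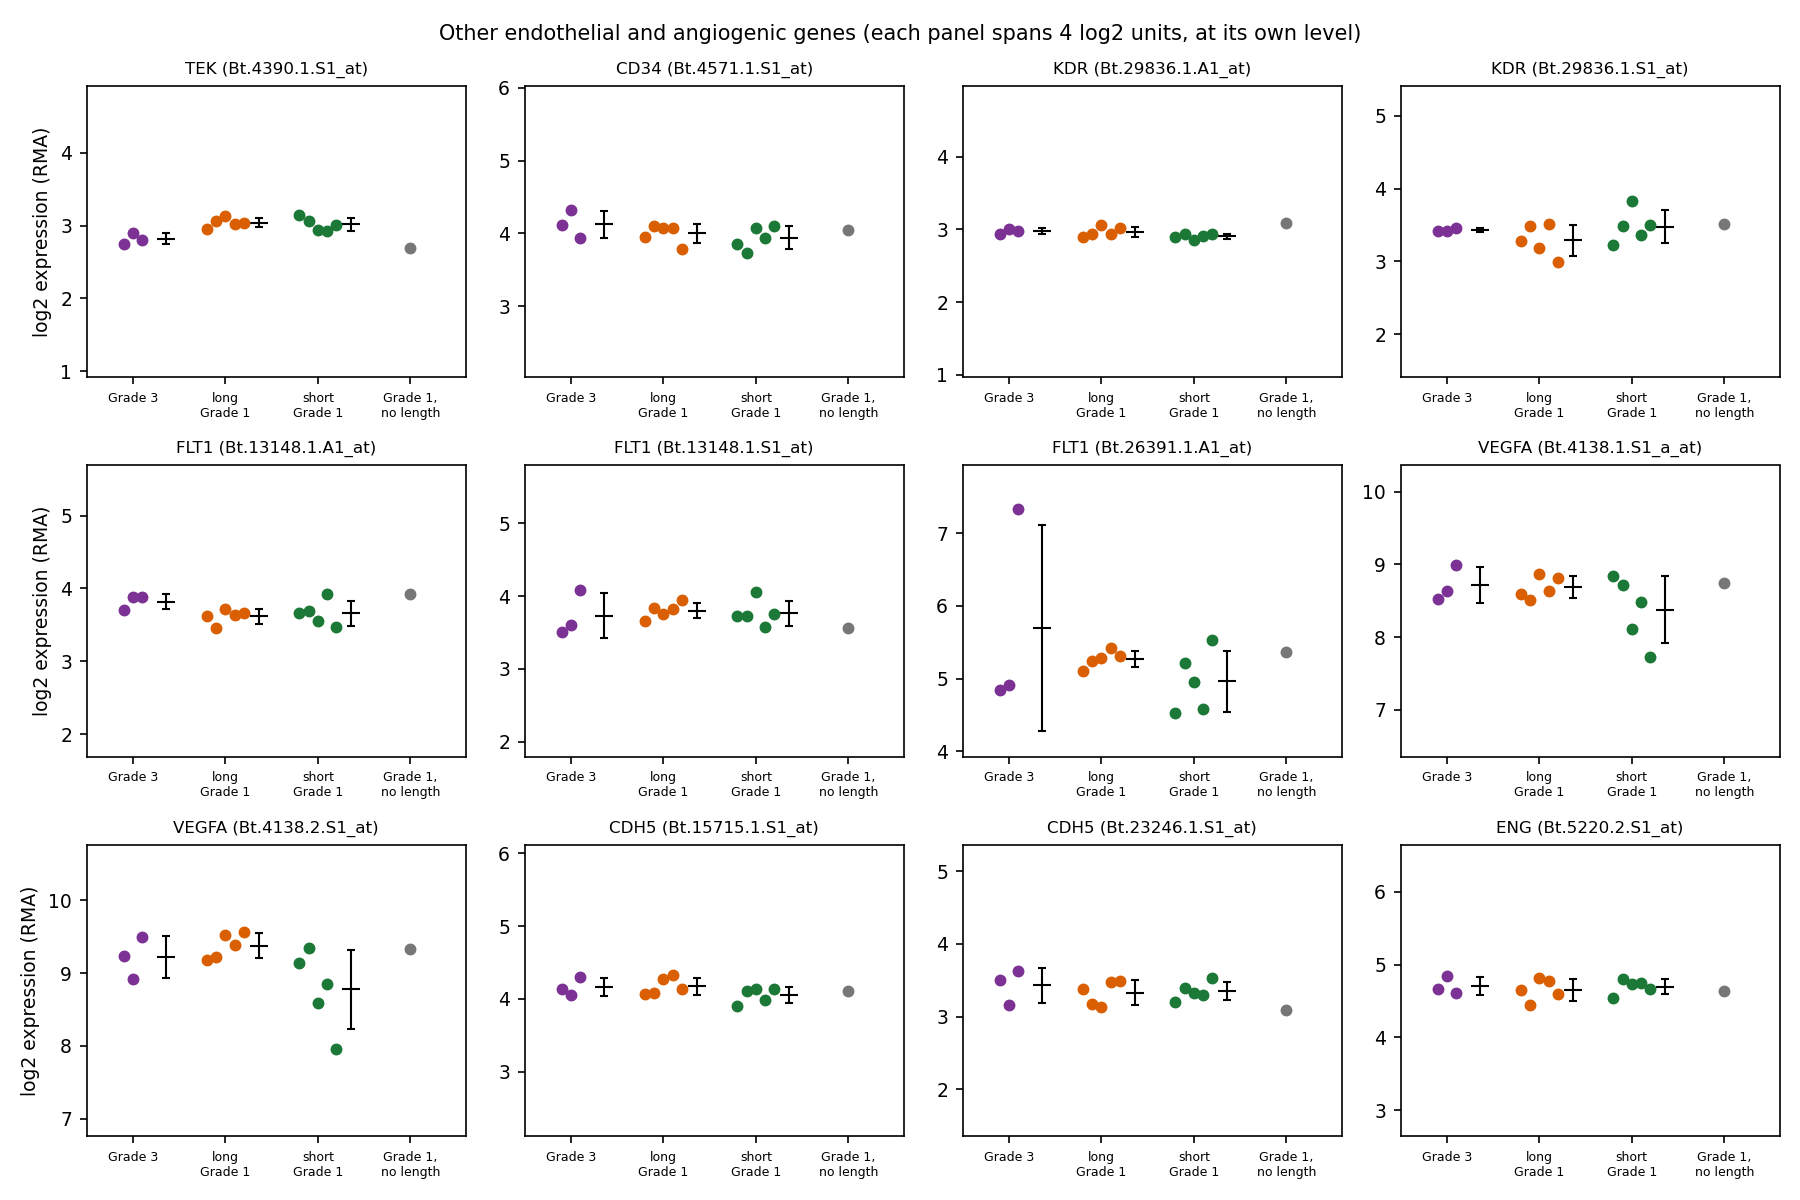
Log2 expression (RMA) of the 12 probe sets of TEK, CD34, KDR, FLT1, VEGFA, CDH5 and ENG in each conceptus, by group, with bars at the mean ± SD and 4 log2 units in every panel. The groups overlap in most panels; a single Grade 3 conceptus stands high on FLT1 Bt.26391.1.A1_at, and the short conceptuses spread widest in VEGFA.

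How far dim values show a transcript at all can be read from genes of the Y chromosome, which females lack. The probe sets of TSPY, a Y-linked testis gene family, averaged 2.99 to 7.35 in the 6 males and 2.98 to 7.37 in the 8 females. ZFY, a Y-linked zinc finger gene, averaged 2.58 in males and 2.55 in females. No member but VEGFA lay above the range that TSPY probe sets gave in females, so the level of a dim member does not by itself show that it was transcribed. The mean signal of TEK and of KDR Bt.29836.1.A1_at lay at the 5.76 and 5.67 percentiles of probe sets, and those of PECAM1, SOX18 and ENG between the 37.4 and the 46.7 percentiles. In whole conceptuses, fewer cells of a type and less RNA per cell cannot be told apart.

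Between long and short conceptuses, 3 of the 15 probe sets (20%) passed the adjusted threshold of 0.05 in limma, against 6.57% of all probe sets. These were both PECAM1 probe sets, higher in long (2.7% of all probe sets passed as higher), and SOX18, lower in long (3.87% passed as lower). The same 3 had ranges that did not overlap between long and short, as 8.42% of all probe sets did. Since this contrast chose PECAM1 and SOX18, nothing is read from these shares. With title prefix as a block, or with the conceptus of conflicting labels counted as long, 0 of the 15 passed, and over all probe sets 112 and 492 passed in place of 1577. The median difference of the 15 was 0.06, against -0.02 over all probe sets.

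**Figure D4:**
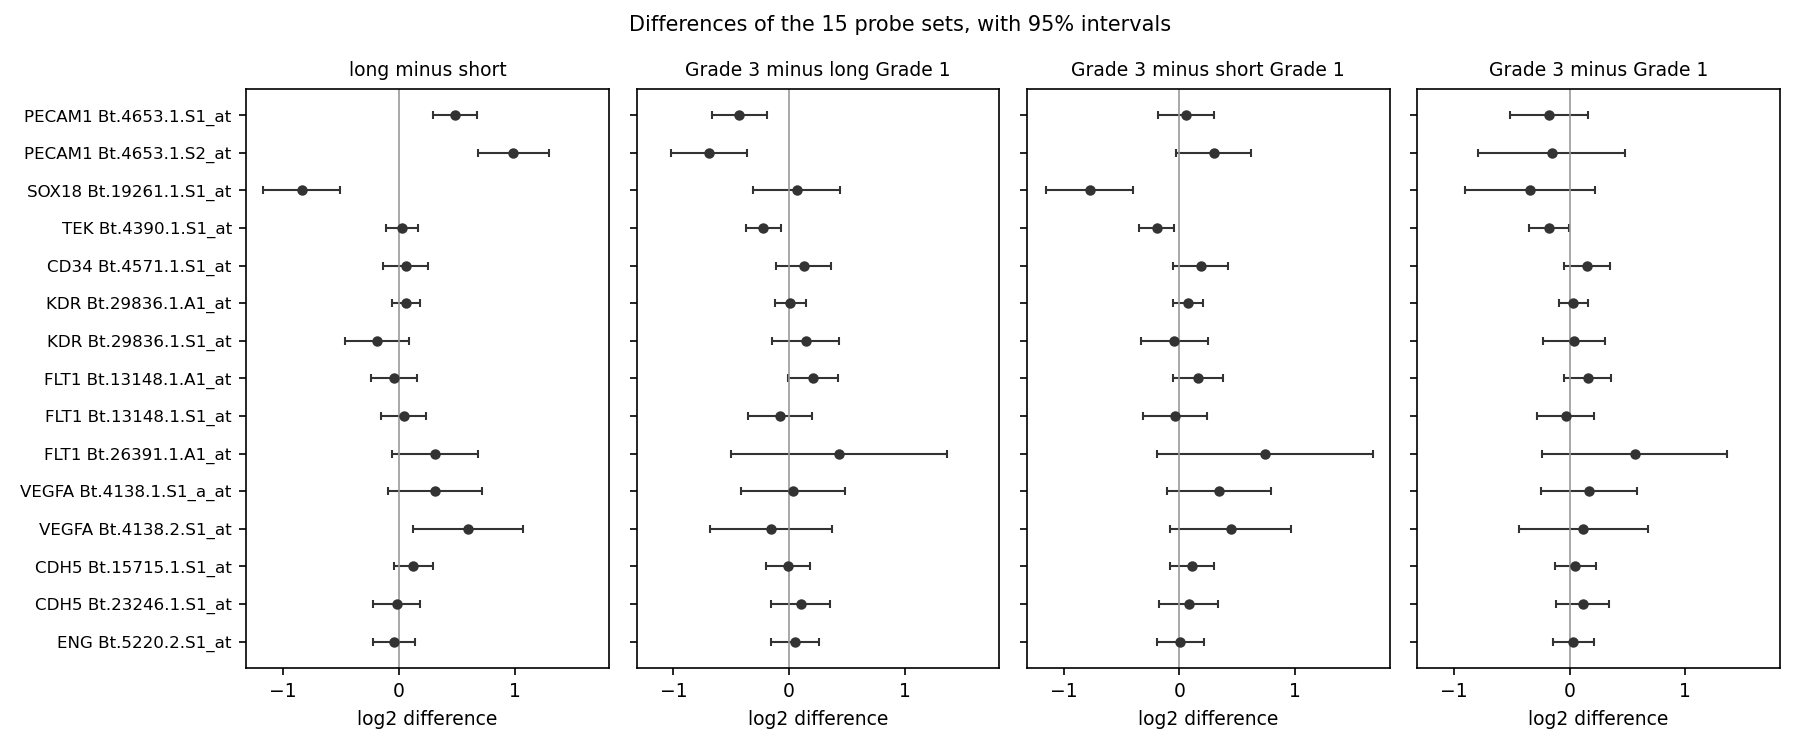
Log2 differences of the 15 probe sets with 95% intervals from limma, in 4 panels for long minus short, Grade 3 minus long, Grade 3 minus short and Grade 3 minus all Grade 1. PECAM1 and SOX18 lie on opposite sides of 0 in the first panel, PECAM1 is below 0 against long conceptuses and SOX18 below 0 against short ones, and all intervals but that of TEK span 0 in the last.

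The comparison of embryo grade asked whether conceptuses grown from Grade 3 embryos differed by Day 15 from those grown from Grade 1 embryos. It did not choose the members, and 0 of the 15 passed, as did 0% of all probe sets. At an unadjusted p under 0.05 there was 1 of the 15, against 5.06% of all, and 0 of the 15 had ranges that did not overlap, against 0.554% of all. The 1 was TEK, at -0.18 ± 0.08 (SE, log2), with limma's adjusted p = 0.981. TEK averaged 2.82 ± 0.073 in Grade 3 (SD, n = 3) and 3.00 ± 0.13 in Grade 1 (SD, n = 11).

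For PECAM1 and SOX18 the Grade 1 group as a whole hides its split by length. PECAM1 averaged 5.27 in Grade 3 and 5.42 in Grade 1 on the brighter probe set, a difference of -0.16 with a 95% interval of -0.79 to 0.48. SOX18 averaged 4.60 in Grade 3 and 4.95 in Grade 1, a difference of -0.34 with an interval of -0.91 to 0.22. Both had adjusted p = 0.999 in limma, and the intervals leave room for differences near the size of those between long and short. The largest difference of any member was that of FLT1 Bt.26391.1.A1_at, 0.56 ± 0.38, and it rests on 1 conceptus: without Grade 3 replicate 3 it was -0.25. The VEGFA differences were 0.12 ± 0.26 and 0.17 ± 0.20, and that of CD34 was 0.15 ± 0.09.

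Against the long conceptuses alone, Grade 3 conceptuses had PECAM1 at -0.69 ± 0.15 and -0.43 ± 0.11 and SOX18 at 0.07 ± 0.17 (SE, log2). Against the short ones, PECAM1 was at 0.30 ± 0.15 and 0.06 ± 0.11 and SOX18 at -0.77 ± 0.17. These rest on the same arrays of long and short conceptuses that chose both genes, so they are given without a p. By this description Grade 3 conceptuses were nearer to short ones in PECAM1 and nearer to long ones in SOX18.

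The ranges of 3 of the 15 probe sets, those of PECAM1 and TEK, did not overlap between Grade 3 and long conceptuses, against 7.14% of all probe sets. Between Grade 3 and short conceptuses 4 of the 15 did not overlap, those of SOX18, TEK, the brighter PECAM1 and KDR Bt.29836.1.A1_at, against 6.08% of all. Nothing is read from these counts, since the long and short values of PECAM1 and SOX18 chose both genes. No member passed limma's adjusted threshold in either comparison, nor did any of the 24016 probe sets (0%), although 9.06% and 10.6% of all had an unadjusted p under 0.05. TEK was lower by 0.22 ± 0.07 than in long conceptuses (SE, log2), with limma's adjusted p = 0.395. Against short ones the TEK difference was -0.20 ± 0.07, with adjusted p = 0.365.

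Sex, fitted with grade as a covariate, changed none of the members past the threshold: 0 of 15 passed, against 0.362% of all probe sets. An unadjusted p under 0.05 was reached by 2 of 15, against 8.03% of all, and 0 of the 15 had ranges that did not overlap, against 0.491%. The dimmer PECAM1 probe set had a lowest, median and highest value of 4.74, 4.92 and 5.20 in the 6 males, against 4.91, 5.26 and 5.57 in the 8 females. Its male minus female difference was -0.28 ± 0.12 (SE, log2), with limma's adjusted p = 0.57, and 4 of the 5 long conceptuses were female. CD34 had 3.73, 3.94 and 4.11 in males against 3.79, 4.08 and 4.32 in females, a difference of -0.16 ± 0.07 with adjusted p = 0.584. SOX18 differed by 0.29 ± 0.22 and VEGFA by 0.28 ± 0.22 and 0.24 ± 0.16, within the spread between conceptuses of 1 sex. Over all lists described here only ETS2 passed for sex, a transcription factor of trophoblast that also stands among the vessel fate factors, against 0.535% of all genes. ETS2 had 10.05 to 10.61 in the 6 males and 9.16 to 10.07 in the 8 females, and differed by 0.79 ± 0.16 with limma's adjusted p = 0.05, a call lost in 17 of 21 alternatives. Its other probe set differed by 0.81 ± 0.19 and did not pass, with limma's adjusted p = 0.128.

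Genes of the wider vessel pathways were counted by list between long and short conceptuses. Of 10 measured genes of the VEGF system 0 rose and 1 fell in long conceptuses, against 3.27% higher and 6.24% lower over all genes, each gene represented by its brightest probe set. The 1 was NRP1, the co-receptor that binds VEGFA beside KDR, with 3.53, 4.16 and 3.32 in Grade 3, 3.50, 2.99, 3.52, 3.37 and 3.15 in long and 4.95, 5.61, 3.86, 4.49 and 4.58 in short conceptuses. All short conceptuses were above all long ones, and the highest Grade 3 value reached into the short range. Long minus short was -1.39 ± 0.26 (SE, log2), with limma's adjusted p = 0.0162. NRP1 thus had the direction of SOX18, and its call was lost in 2 of 19 alternatives. Grade 3 minus short was -1.03 ± 0.30 and Grade 3 minus long 0.36, and neither passed. Since NRP1 was named for its length difference, nothing is read from these 2 values.

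Ligands and receptors related to the members had values that missed the threshold. PGF, the placental ligand of FLT1, differed by -0.12 between long and short, and NRP2, the sister co-receptor of NRP1, by 0.01. Of 7 genes of the TIE and angiopoietin system 0 passed in either direction, against 3.27% higher and 6.24% lower over all genes. TIE1, the partner receptor of TEK, was at -0.12. The TEK ligands ANGPT1 and ANGPT2 were at -0.09 and 0.07. Of 9 genes of TGF-beta signalling in vessels 0 passed, among them ACVRL1, the receptor that works with ENG, at 0.23 ± 0.09 with limma's adjusted p = 0.145.

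Of 20 measured genes of endothelial identity 1 rose in long conceptuses, PECAM1, and 0 fell, and of the 14 that are no members 0 passed. Over all genes 9.5% passed in either direction, and PECAM1 was chosen on this contrast, so nothing is read from the count. The list's median difference was 0.03, and its mean level was 4.15 to 4.25 in Grade 3, 4.16 to 4.28 in long and 4.04 to 4.24 in short conceptuses. Of 11 measured transcription factors of endothelial and vessel fate, 1 rose, NR2F2, and 1 fell, SOX18. SOX18 too was chosen on this contrast, and of the 10 that are no members 1 passed, beside 9.5% of all genes. Of 4 Notch genes and 16 other modulators of angiogenesis 0 passed. SOX7 and SOX17, the closest relatives of SOX18, have no named probe set here.

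NR2F2, known as COUP-TFII, a nuclear receptor of vein endothelium that trophoblast also makes, had 7.61, 6.74 and 7.71 in Grade 3, 7.73, 7.45, 7.23, 7.21 and 7.44 in long and 7.23, 6.86, 6.66, 6.42 and 6.30 in short conceptuses. Long minus short was 0.72 ± 0.17 (SE, log2), with limma's adjusted p = 0.0306. Only the highest short value reached the long range. Its other probe sets differed by 1.31 ± 0.36 and by 0.03, with limma's adjusted p = 0.0519 and 0.881, and the call was lost in 7 of 20 alternatives.

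Of 13 measured genes of the hypoxia response, in which HIF factors switch on VEGFA, 2 rose in long conceptuses and 0 fell. Over all genes 3.27% were higher and 6.24% lower. The list's median was 0.24, with 11 differences above 0 and 2 below. Among genes that did not pass, ADM differed by 0.84, VEGFA by 0.60, EGLN3 by 0.45 and P4HA1 by 0.29. EGLN1 was at 0.24, with limma's adjusted p = 0.0502. LDHA was at 0.15, SLC2A1 at 0.12, PGK1 at 0.07, BNIP3 at 0.04 and ARNT at -0.06. EPAS1, which encodes HIF-2alpha, had 11.97, 11.85 and 12.38 in Grade 3, 12.21, 12.11, 12.13, 12.08 and 12.27 in long and 11.58, 11.75, 11.73, 11.82 and 11.12 in short conceptuses. All long and all Grade 3 values were above all short ones. EPAS1 differed by 0.56 ± 0.12 between long and short conceptuses (SE, log2), with limma's adjusted p = 0.0231. That call was lost in 6 of 20 alternatives. HIF1A, the sister factor, was at -0.02.

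NDRG1, a stress gene switched on by low oxygen, had 9.51, 8.74 and 9.86 in Grade 3, 9.92, 11, 9.13, 9.69 and 9.89 in long and 8.18, 8.69, 8.55, 8.44 and 8.19 in short conceptuses. Long and short did not overlap, and long minus short was 1.52 ± 0.27 (SE, log2) with adjusted p = 0.0139 in limma, a call lost in 3 of 20 alternatives. Grade 3 minus short was 0.96 ± 0.33 for NDRG1, 0.47 ± 0.15 for EPAS1 and 0.66 ± 0.23 for NR2F2. Grade 3 minus long was -0.55, -0.09 and -0.06 for the same genes. None of these differences passed in limma. The 3 genes were named for their difference between long and short conceptuses, so nothing is read from these values.

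**Figure D5:**
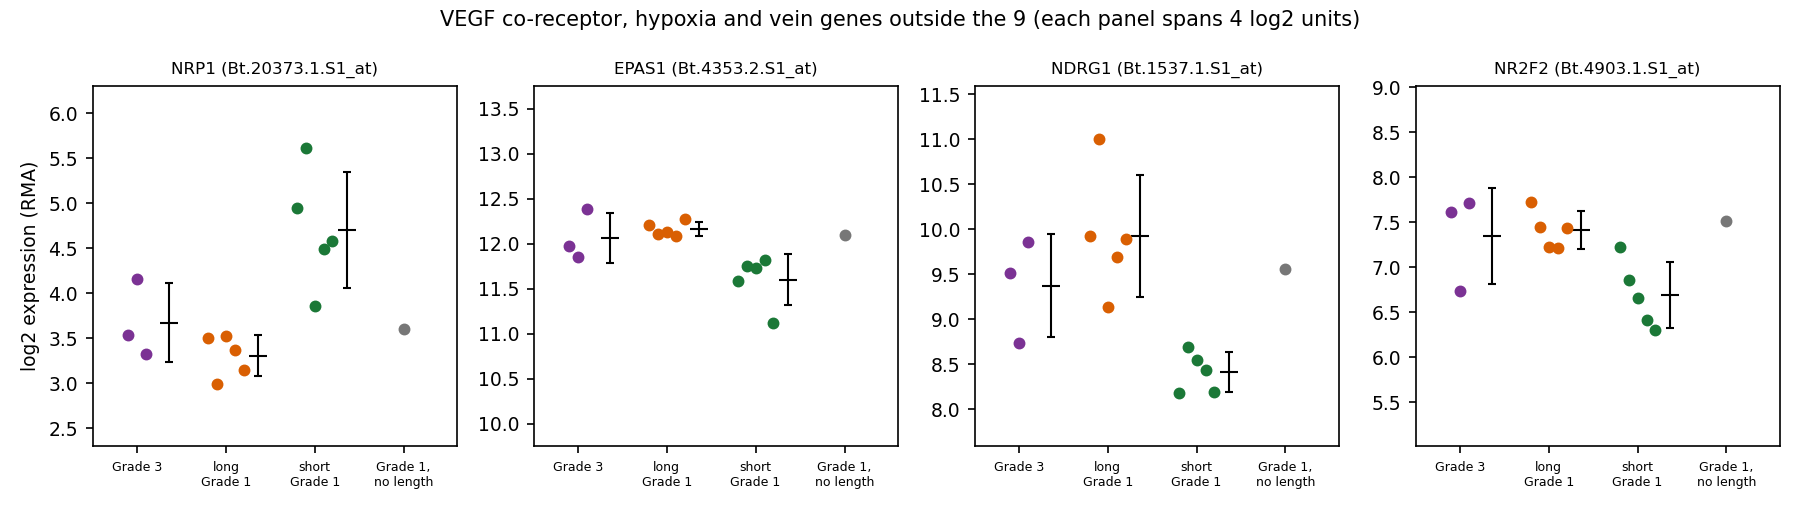
Log2 expression (RMA) of NRP1, EPAS1, NDRG1 and NR2F2 in each conceptus, by group, with bars at the mean ± SD. NRP1 is lower in long than in short conceptuses and the other 3 are higher. The Grade 3 mean lies nearer the long than the short mean in each panel, but Grade 3 replicate 2 lies in or next to the short range. All were named for their difference between long and short conceptuses.

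Marker genes of other cell types were counted beside these values, since PECAM1 is also a gene of leukocytes and platelets. Of 12 measured leukocyte and platelet genes 0 rose in long conceptuses and 1 fell, against 3.27% higher and 6.24% lower over all genes. The 1 was CD8A, a T cell co-receptor, with its call lost in 9 of 20 alternatives. The list's mean level was 4.83 to 4.94 in Grade 3, 4.70 to 4.95 in long and 4.77 to 5.12 in short conceptuses. PTPRC, which defines leukocytes, averaged 3.05, near the low end of the list. Its genes ran from 2.96 for PF4 to 6.46 for CD8A, with CD68 at 6.41 and ITGB2 at 6.21. Of 10 erythroid genes 0 passed, and the haemoglobin genes HBB and HBA averaged 4.26 and 3.32. The platelet integrin ITGA2B and the platelet factor PF4 were at 0.20 and 0.14, short of the threshold. The part of blood cells in the values of PECAM1 was not tested.

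Some genes of the layers that make up the conceptus also passed, where 3.27% of all genes were higher and 6.24% lower in long conceptuses. Of 13 hypoblast genes 3 rose, the retinol carrier RBP4, the apolipoprotein APOA1 and the basement membrane collagen COL4A1, and 1 fell, the receptor PDGFRA, with a list median of -0.10. Of 12 stroma and pericyte genes 2 rose, the actin-binding TAGLN at 2.31 ± 0.25 and the surface protein THY1 at 0.40 ± 0.11 (SE, log2), while the list's median was 0.05. The stroma list's mean level, in which TAGLN weighs most, was 4.76 to 4.81 in Grade 3, 4.80 to 4.95 in long and 4.54 to 4.74 in short conceptuses, so that its long range lay above its short one. Of 9 trophoblast genes 1 rose, TFAP2A, and 1 fell, ASCL2, both trophoblast transcription factors. The part of these in the values of PECAM1 and SOX18 was not tested.

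Of 17 listed markers of mesoderm, the source of endothelium, 5 were measured, and TBXT, EOMES and FOXF1 were not among them. Between long and short 0 of the 5 passed, against 3.27% higher and 6.24% lower over all genes. HAND1 differed by 1.59 ± 0.49 and SNAI1 by -0.78 ± 0.21 (SE, log2), with limma's adjusted p = 0.0745 and 0.051. BMP4 was at 0.40, MSX1 at -0.30 and VIM at -0.24. The list's mean level was 5.83 to 6.02 in Grade 3, 5.71 to 6.37 in long and 5.78 to 6.18 in short conceptuses. Of 8 endometrium markers 0 passed, beside the same shares over all genes. Defining genes of the layers covered a wide range of levels. Of the trophoblast genes, the keratins KRT18 and KRT8 averaged 14.47 and 6.16 over all conceptuses and interferon tau (IFNT2) 14.53. Of the hypoblast genes, APOA1 averaged 12.95, the transcription factor GATA4 6.71 and alpha-fetoprotein (AFP) 3.95. VWF, a product of mature endothelium, averaged 4.21 and the endothelial surface gene EMCN 3.74. The genes of endothelial identity ran from 2.76 for MMRN1 to 6.43 for EGFL7. Since probe sets bind unequally, these levels do not rank the cell types.

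The genes whose levels over the 14 conceptuses were most like those of PECAM1, among 1062 genes with an SD of at least 0.3, were CAST (r = 0.94), PRUNE2 (0.93), ELOVL4 (0.93) and GFI1 (0.91), with Pearson's r. CAST encodes calpastatin, the inhibitor of calpain proteases, and ELOVL4 an enzyme that lengthens fatty acids. Those most like SOX18 were CDC42EP3 (r = 0.83), TSPAN12 (0.79), SOX15 (0.79) and LRIG3 (0.78). These correlations are a description over arrays that share the split between long and short, and they were ranked among all 1062 genes.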

How the data were processed

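RNA of 14 whole Day 15 conceptuses was measured on 1 bovine Affymetrix array each, from 250 ng of total RNA labelled with biotin, per the labels' protocols. The deposited values are log2 expression. The submitters' processing notes name Affymetrix Expression Console and RMA, without versions. RMA quantile-normalises arrays, which removes a shift common to all genes, and compresses differences of dim probe sets. The arrays' medians ranged over 5.62 to 5.716, and the number of arrays, not a read depth, limits the precision.

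After 112 control probe sets were left out, 24016 were tested with limma 3.58.1 (lmFit, eBayes) in R 4.3.3, two-sided, with Benjamini-Hochberg adjustment over all of them and a threshold of 0.05. The fits were long minus short (10 arrays), Grade 3 minus Grade 1 (3 and 11), Grade 3 minus long and minus short (4 group means over 14 arrays), and male minus female with grade as a covariate. The design text speaks of 4 Grade 1 conceptuses in the grade comparison but not of which, and all 11 entered here.

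Names came from GEO's platform annotation, with 13292 probe sets of 1 symbol, 86 of several and 10638 of none. The 15 of the members all had an entry in RefSeq's bovine gene table (assembly ARS-UCD2.0), which served for names only. In counts over lists each gene stands as its probe set with the highest mean. Named genes were all members, the 4 genes most like PECAM1 and SOX18 by Pearson's r, list genes that passed, and relatives of members. Genes that define other cell types, Y-linked genes and some further list genes were named for their levels or differences with their values known. The members, lists and tests were chosen with earlier results of these data known. The fits were tested on simulated data. Alternatives changed the normalisation, a filter on dim probe sets, the prior, covariates, blocks by title prefix, the conceptus with conflicting labels, and each conceptus left out in turn.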

Additional observations from a re-analysis of the deposited data

Results flagged for a closer look

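Among the 6 males, 3 probe sets, of FLT1 and SOX18, had 1 conceptus far above the others, of 60 sets of values looked at over long, short, male and female conceptuses, where chance marks about 1 in 20. Grade 3 replicate 3 had 7.33 on FLT1 Bt.26391.1.A1_at, with the next male at 5.37 and the lowest at 4.53. The same conceptus had 4.08 on FLT1 Bt.13148.1.S1_at, with the next male at 3.72 and the lowest at 3.51. Short replicate 1, whose labels give both lengths, had 5.94 for SOX18, with the next male at 5.02 and the lowest at 4.58. Within its own group of 5 short conceptuses that SOX18 value was not marked.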

How the results depend on the processing

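Both PECAM1 probe sets and SOX18 kept their direction between long and short conceptuses under every alternative run. With each conceptus left out in turn, the differences were 0.87 to 1.08 and 0.44 to 0.54 for PECAM1 and -0.93 to -0.70 for SOX18, and these 3 probe sets passed each time. Since this contrast chose both genes, nothing is read from these passes. None of the 3 passed under 2 alternatives: with the conceptus of conflicting labels counted as long, 0 of 15 passed (0.83 and 0.35 for PECAM1, -0.47 for SOX18), and with title prefix as a fixed replicate block 0 passed (1.02, 0.47 and -0.64). The causes were not tested. Over all probe sets 1577 passed for length: 2403 with sex as a covariate, 492 with that conceptus as long, 112 with the replicate block, 460 to 1697 with 1 conceptus left out, the fewest without short replicate 4. In the 7 females alone, added after seeing the data, 903 passed, with 4 of the 15 probe sets, VEGFA Bt.4138.2.S1_at among them at 0.96.

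NRP1 lost its call in 2 of 19 alternatives, NDRG1 in 3, EPAS1 in 6 and NR2F2 in 7 of 20, CD8A in 9 of 20. For grade the counts over all probe sets were 0 to 2 with 1 conceptus left out. Grade 3 minus long gave 49 with sex as a covariate and 0 to 1 with 1 left out, and Grade 3 minus short 4 without the conflicting conceptus and 0 to 4 with 1 left out. For sex, 87 passed, 5 with the replicate block, and 49 to 126 with 1 left out. Of 1286 alternative values of members that had not passed, 51 changed sign. The fixed block could not be fitted for grade, and members with a mean under 5 have no value under the filter on dim probe sets. Prefixes are no stated pairing, and signal near the array's floor limits TEK and KDR most.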
